A study of Mus musculus with 21 samples.

Results

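Integrins and laminins, the receptors and ligands that tie cells to the basement membrane, were followed across mouse pluripotent stem cells, cells derived from them in culture and primary blood progenitors. Members were chosen by symbol alone, taking every gene named as an integrin alpha (Itga), integrin beta (Itgb) or laminin alpha, beta or gamma chain (Lama, Lamb, Lamc). This gave 37 of the 22899 genes in the table of cocultured cells and 38 of the 27968 genes in the table of sorted cells, where 37 distinct symbols were present because Itgam was listed under 2 identifiers. Both tables held RNA-seq values as FPKM, read fragments normalised for transcript length and for the sequencing depth of the library, so levels are compared between genes on that scale.

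The series held 21 libraries in 7 groups of 3. The coculture table covered day 5 total cells from stem cells labelled 129/ola, in which hematopoietic colonies from a 3D self-assembling peptide culture had been replated either on OP9 cells, a mouse stromal line inactivated with mitomycin C (3D+OP9), or on the coating alone (3D+0.1% gelatin). The sorted table covered undifferentiated 129/ola embryonic stem cells sorted by SSEA-1 (mESC), day 5 cells of the 3D+OP9 culture sorted as LSKCD201+ or LSKCD201- (D5-LSKCD201+, D5-LSKCD201-), and LSKCD201+ cells from C57BL/6 fetal liver at E12.5 (FL-LSKCD201+) and from the bone marrow of young adult C57BL/6 mice (BM-LSKCD201+). LSK denotes lineage-negative, Sca-1+ and c-kit+ cells, and CD201 is the endothelial protein C receptor used to enrich hematopoietic stem cells. The stem cells had been kept on mouse embryonic fibroblasts, 3 of the day 5 groups (3D+OP9 and both sorted fractions) came from a culture that also held OP9 cells, and no transgene or deletion was stated for any group. By their labels the day 5 and primary groups differed in strain, tissue and culture together, which cannot be told apart, although the study's methods name both 129/ola and C57BL/6 mice as sources of its stem cells. The study calls the 3 libraries of each sorted group biological replicates. How many animals or cultures were pooled in a library was not given in the sources used here, so p-values measure the spread between these libraries, which may be partly technical.

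An integrin is a pair of one alpha and one beta chain, and the pair decides which ligand is bound. Itgb1 pairs with many alpha chains to bind collagens, laminins and fibronectin, whereas Itgb2 and Itgb7 serve mainly leukocytes, and Itga2b with Itgb3 forms the fibrinogen receptor of platelets, whose alpha chain (CD41) is also an early mark of embryonic hematopoiesis. Laminins are trimers of an alpha, a beta and a gamma chain, of which Lama4 and Lama5 are the alpha chains of vascular basement membranes, and Lama1 is typical of early embryonic ones.

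The labels were checked against marker genes. Kit, which encodes c-kit, was present in the D5-LSKCD201+ libraries (mean 44.5 FPKM), whereas Ptprc, the pan-leukocyte CD45, stood at 0.409 FPKM there and at 0.633 in D5-LSKCD201- cells, against 43.5 in FL-LSKCD201+ and 66.8 in BM-LSKCD201+ cells. The list of 10 hematopoietic markers, which holds both, summed to 120 to 122 FPKM in D5-LSKCD201+ and 55.7 to 63.7 in D5-LSKCD201- cells. At least 1 FPKM was reached by 6 of 10 and 8 of 10 markers. In FL-LSKCD201+ and BM-LSKCD201+ cells the list summed to 1310 to 1538 and 1411 to 1547 FPKM (10 of 10 in both). All 10 endothelial markers reached 1 FPKM in D5-LSKCD201+ cells and summed to 2092 to 2119 FPKM, with Cdh5 at 70.8, against 216 to 237 in D5-LSKCD201-, 487 to 554 in FL-LSKCD201+ and 363 to 413 in BM-LSKCD201+ cells. D5-LSKCD201- cells kept all 10 pluripotency markers (summed 3759 to 4274 FPKM, against 6863 to 7425 in mESC and 31.0 to 40.01 in D5-LSKCD201+ cells). Replicate 2 of D5-LSKCD201-, replicate 1 of FL-LSKCD201+, replicate 1 of BM-LSKCD201+ and replicate 3 of 3D+OP9 lay at Euclidean distances of 40.4 to 54.6 from their partners over log2(FPKM + 1), while those partners lay 16.7 to 19.4 from each other. Distances within the other 3 groups were 19.5 to 39.3, and no library was a copy of another. Summed FPKM per library ranged from 483263 to 508307 in the coculture table and from 508622 to 620332 in the sorted table. Read depth is unknown. In such bulk libraries, fewer cells of a type and less RNA per cell cannot be told apart.

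Of the 38 listed members, 30 reached a mean of 0.5 FPKM in at least 1 sorted group, and 14 of these were highest in D5-LSKCD201+ cells (Itga1, Itga2, Itga2b, Itga3, Itga5, Itga9, Itgav, Itgb1, Itgb3, Lama3, Lama4, Lamb1, Lamb2 and Lamc1). In 12 of the 14 the lowest D5-LSKCD201+ library exceeded every library of the next group, the exceptions being Itga9 and Itgav. In the 4 comparisons of D5-LSKCD201+ cells with another sorted group, 73.6% to 86.1% of all genes tested did not overlap, in either direction. The share of all genes that were highest in D5-LSKCD201+ cells was not computed, so these counts of members have no background beside them. A further 6 members were highest in D5-LSKCD201- cells (among them Itga7, Itga8, Lama1, Lama5 and Lamb3), 3 in mESC (Itga6, Itgae, Itgb4), 3 in FL-LSKCD201+ (Itga4, Itgal, Itgb2) and 4 in BM-LSKCD201+ cells (Itgam, Itgax, Itgb5, Itgb7). Of these, Lamb3, Itgb2 and Itgam overlapped the next group. The remaining 8 records stayed under 0.5 FPKM in all 5 groups, namely Itga10, Itga11, Itgad, Itgb6, Itgb8, Lama2, Lamc3 and the second Itgam record, whose identifier the GENCODE M21 annotation assigns to an overlapping gene, Gm49368. The levels of Itgam, Itga1 and Itga10 carry some uncertainty, since exons of Gm49368, Gm49395 and Gm42957, in that order, overlap theirs on the same strand.

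**Figure D1:**
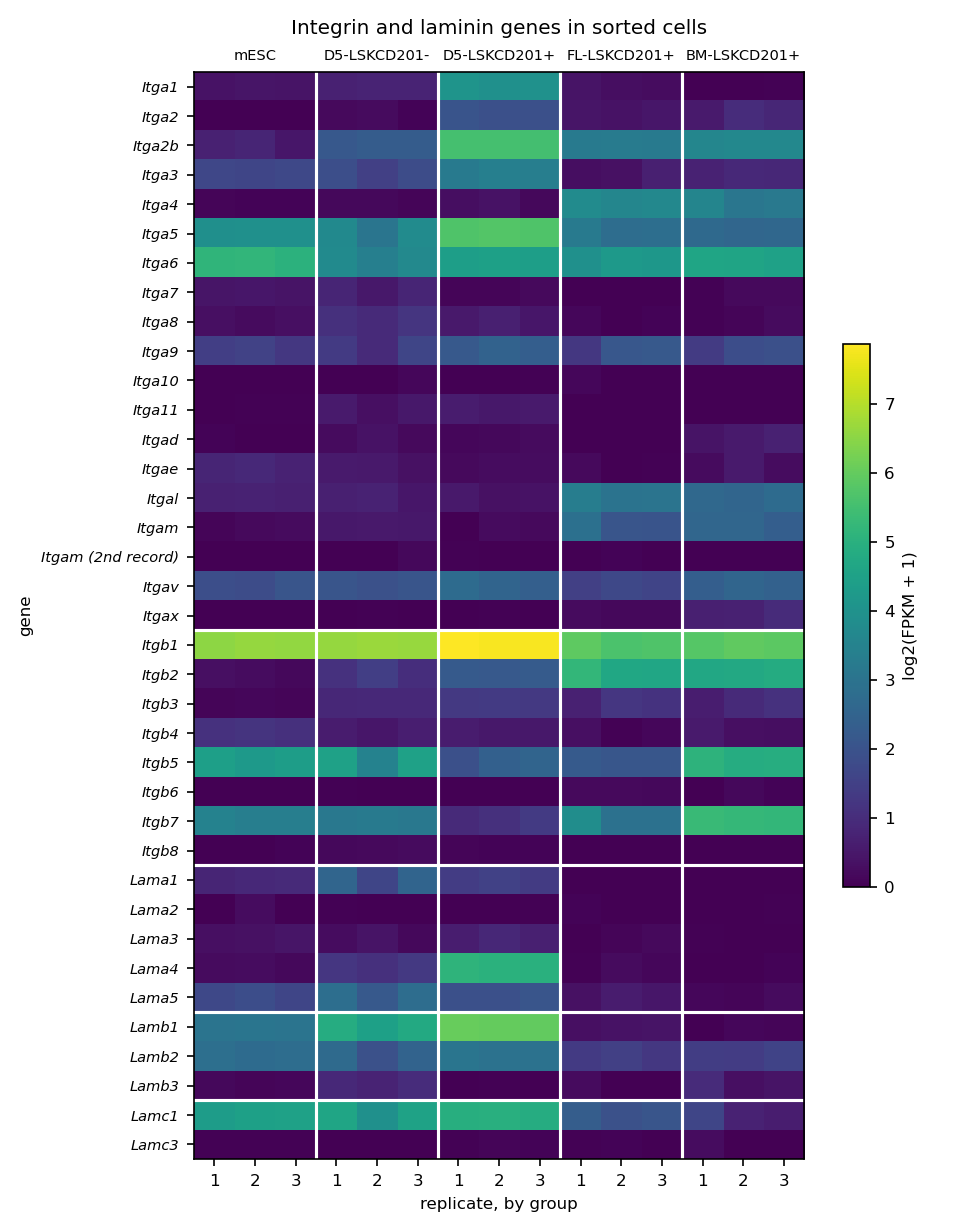
Level of 37 integrin and laminin records as log2(FPKM + 1) in each of the 15 sorted libraries, with columns grouped by cell population and white lines between gene families. Itga1, Itga2b, Itga5, Itgb1, Lama4 and Lamb1 are brightest in the 3 D5-LSKCD201+ libraries, and Itga4, Itgal, Itgam and Itgb2 in the fetal liver and bone marrow libraries.

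The make-up of each family differed between the populations. Summed over the alpha chains, D5-LSKCD201+ libraries held 153 to 158 FPKM, against 56.6 to 60.1 in mESC, 30.8 to 41.6 in D5-LSKCD201-, 60.3 to 64.3 in FL-LSKCD201+ and 67.8 to 69.8 in BM-LSKCD201+ libraries. Itga6, a laminin receptor chain, made up 58.4% ± 1.26 (SD, n = 3) of the alpha-chain sum in mESC, 30.0% ± 1.20 in D5-LSKCD201- and 13.1% ± 0.162 in D5-LSKCD201+ cells. In the last of these the leading alpha chains were Itga5, the fibronectin receptor chain, at 33.4% ± 0.452 and Itga2b at 28.9% ± 0.285. Itga6 again led in FL-LSKCD201+ (26.5% ± 3.55) and BM-LSKCD201+ cells (33.2% ± 0.788).

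Among beta chains, Itgb1 made up 95.4% ± 0.674 of the sum in D5-LSKCD201+ cells, 77.8% ± 4.11 in D5-LSKCD201- and 75.6% ± 1.87 in mESC. In FL-LSKCD201+ cells it held 56.4% ± 3.58, with Itgb2 at 29.4% ± 1.89. In BM-LSKCD201+ cells it held 37.8% ± 1.92, beside 24.5% ± 1.27 for Itgb7, 19.7% ± 1.46 for Itgb5 and 17.1% ± 0.869 for Itgb2. The beta-chain sum itself was 232 to 243 FPKM in D5-LSKCD201+ libraries and at most 153 in those of the other sorted groups.

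**Figure D2:**
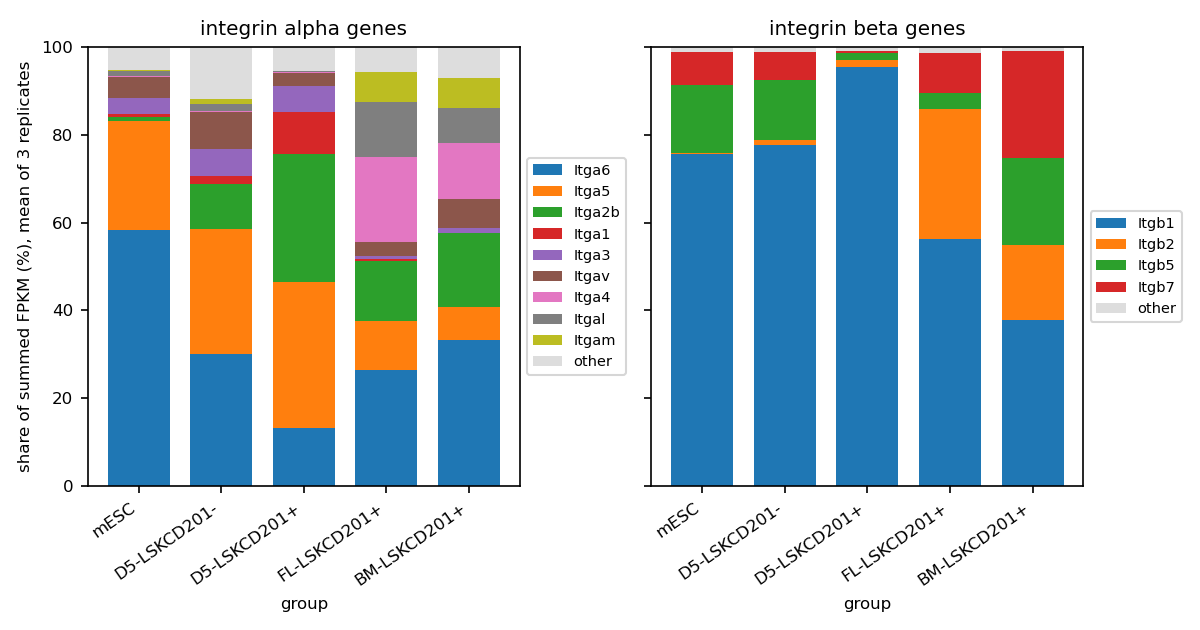
Share of each integrin chain in the summed FPKM of all alpha chains (left) and all beta chains (right), in percent, as the mean of 3 libraries per sorted population. Itga6 fills 58.4% of the alpha-chain bar in mESC and 13.1% in D5-LSKCD201+ cells, and Itgb1 fills 95.4% of the beta-chain bar in D5-LSKCD201+ cells and 37.8% in BM-LSKCD201+ cells.

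Next, the CD201+ and CD201- fractions of the same day 5 culture were compared. The CD201+ cells held more of the collagen receptor chains Itga1 and Itga2, of Itga2b, Itga3, Itga5, Itga9, Itgb1 and Itgb2 and of the laminin chains Lama4 and Lamb1, and less Itgb5 and Itgb7. In all, 10 members were higher and 3 lower of the 21 that averaged 0.5 FPKM or more in these 6 libraries, a call being an adjusted p below 0.05 with a log2 fold change of 1 or beyond (limma on log2(FPKM + 1), Benjamini-Hochberg over all genes). Across all 13691 genes tested, 24.7% were called, 10.8% higher and 13.9% lower, so that 43.7% of the called genes were higher, which quantile normalization turned to 51.8%. The 17 other records were not tested. The median log2 difference was 0.81 over the tested members and -0.12 over all genes. A fold change on this scale understates the change of genes near 1 FPKM.

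Among the alpha chains, Itga2b and the collagen receptor chain Itga1 had the highest log2 fold changes of FPKM + 1, with Itga5 and the other tested collagen receptor chain, Itga2, next. That scale understates the changes of Itga1 and Itga2, whose CD201- values lay under 1 FPKM, so the order depends on it. Itga1 was at 15.9, 14.6 and 14.8 FPKM in the 3 CD201+ libraries and at 0.667, 0.706 and 0.708 in the CD201- libraries (log2 fold change 3.25, SE 0.09, adjusted p = 1.93e-07). Itga2, at a lower level, read 3.17, 2.82 and 2.82 FPKM against 0.152, 0.173 and 0.0609 (log2 fold change 1.80, SE 0.09, adjusted p = 2.65e-06). Neither pair of groups overlapped. Both genes lie head to tail on the minus strand of chromosome 13, 26.0 kb apart by the loci in the deposited file. The other collagen receptor chains, Itga10 and Itga11, were not tested, with means of at most 0.469 FPKM in both fractions.

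Itga2b read 45.6, 45.4 and 44.4 FPKM in CD201+ and 3.51, 3.92 and 3.92 in CD201- cells (log2 fold change 3.27, SE 0.07, adjusted p = 8.56e-08). Its platelet partner Itgb3 was far lower, at 1.47, 1.55 and 1.48 FPKM against 0.832, 0.882 and 0.881, and its log2 fold change of 0.42 (SE 0.08, adjusted p = 0.00218) stayed under 1. The list of 8 megakaryocyte markers, which holds Itga2b, summed to 60.1 to 62.4 FPKM in D5-LSKCD201+ cells (5 of 8 at 1 FPKM or more) against 7.47 to 8.35 in D5-LSKCD201- cells (3 of 8). Itga2b alone gave 45.2 and 3.78 FPKM of these sums, as means of 3, so they are not independent of it. Of the other genes on the list, Vwf read 6.85 against 1.13 FPKM, Gp1ba 2.39 against 0.194, Pf4 1.75 against 0.178 and Gp9 0.142 against 0.183, as means of 3. The part of the list in the difference was not tested.

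For reference, the 250 bases before the RefSeq start of these 3 alpha chain genes are given below (GRCm38.p6, 5′ to 3′ on the minus strand, from chr13:115101965-115102214, chr13:114932101-114932350 and chr11:102469884-102470133). They are shown because all 3 genes were called higher in CD201+ than in CD201- cells and the first pair are neighbours. The RefSeq start of Itga2b lies inside the gene's locus in the deposited file and in GENCODE M21, so that most of its window falls within that locus. RefSeq promoters matched 23 of the 37 symbols, with 26 starts. On both strands of these windows 3 motifs were searched. The GATA motif AGATAA is held by 9.988% of all 32851 promoters of the same length, the ETS motif CCGGAA by 12.03% and the RUNX motif TGTGGT by 14.05%. None of the 3 sequences holds these letters, so no base is in capitals, and the 26 member starts had a GATA match in 1 (Itgax), an ETS match in 1 (Itga3) and a RUNX match in 2 (Itga3, Itga4).
Itga1: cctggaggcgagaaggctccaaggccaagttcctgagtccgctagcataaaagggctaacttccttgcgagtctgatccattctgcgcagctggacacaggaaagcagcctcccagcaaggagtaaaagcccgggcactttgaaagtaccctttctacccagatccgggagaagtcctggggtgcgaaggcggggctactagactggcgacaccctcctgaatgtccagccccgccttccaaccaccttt
Itga2: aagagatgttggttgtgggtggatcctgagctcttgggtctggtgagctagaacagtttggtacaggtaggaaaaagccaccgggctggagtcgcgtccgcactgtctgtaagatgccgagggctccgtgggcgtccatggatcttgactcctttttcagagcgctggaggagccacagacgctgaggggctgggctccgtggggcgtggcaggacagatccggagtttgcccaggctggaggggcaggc
Itga2b: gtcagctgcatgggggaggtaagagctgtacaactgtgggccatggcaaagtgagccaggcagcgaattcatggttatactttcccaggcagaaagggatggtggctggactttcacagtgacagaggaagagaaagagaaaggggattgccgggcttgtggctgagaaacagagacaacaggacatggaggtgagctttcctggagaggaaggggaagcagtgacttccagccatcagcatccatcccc

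Of the fibronectin and laminin receptor chains, Itga5, Itgb1 and Itga3 were called higher in the CD201+ cells. Itga5 was at 51.4, 53.5 and 51.7 FPKM in CD201+ against 12.3, 7.30 and 13.1 in CD201- libraries (log2 fold change 2.20, SE 0.19, adjusted p = 4.58e-05), so that all CD201+ values lay above 50 and all CD201- values below 14. Itgb1, the shared beta chain, read 233, 221 and 221 FPKM against 98.9, 103 and 99.8 (log2 fold change 1.15, SE 0.05, adjusted p = 1.29e-06). Itga3, a laminin receptor chain, read 8.39, 9.53 and 9.34 FPKM against 2.73, 1.80 and 2.55 (log2 fold change 1.60, SE 0.13, adjusted p = 3.56e-05). The groups did not overlap for any of the 3. Itga6, the other main laminin receptor chain, differed by less, at 20.5 against 11.3 FPKM (log2 fold change 0.81, SE 0.11, adjusted p = 0.000376), and Itgav, the alpha chain of vitronectin receptors, at 4.90 against 3.10 FPKM (0.52, SE 0.12, adjusted p = 0.00667). Itga7, a laminin receptor chain of muscle, was below the filter and not tested, at 0.0736, 0.0763 and 0.148 FPKM in CD201+ against 0.763, 0.410 and 0.776 in CD201- libraries.

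Itga9, a receptor chain for tenascin-C and VCAM1, at 4.09 against 1.52 FPKM and the leukocyte chain Itgb2 at 3.70 against 1.33 were called by a small margin, with log2 fold changes of 1.04 (SE 0.18, adjusted p = 0.00183) and 1.02 (SE 0.13, adjusted p = 0.000302). Without D5-LSKCD201- replicate 2 the value of Itga9 was 0.86, without D5-LSKCD201+ replicate 2 it was 0.97, and without D5-LSKCD201- replicate 1 or 3 that of Itgb2 was 0.98 or 0.94, each under the fold threshold. The alpha chains that pair with Itgb2 (Itgal, Itgam, Itgax, Itgad) were all below 1 FPKM in both fractions and were not tested. Itgb7, the beta chain of gut-homing lymphocyte integrins, went the other way, at 0.906, 1.14 and 1.52 FPKM in CD201+ against 7.96, 8.39 and 7.94 in CD201- cells (log2 fold change -2.07, SE 0.12, adjusted p = 6.62e-06). Itgb5, a vitronectin receptor beta chain, read 2.76, 4.30 and 4.80 FPKM against 21.9, 10.3 and 21.8 (log2 fold change -1.89, SE 0.30, adjusted p = 0.0011), and the groups did not overlap although CD201- replicate 2 was the lowest of its group.

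**Figure D3:**
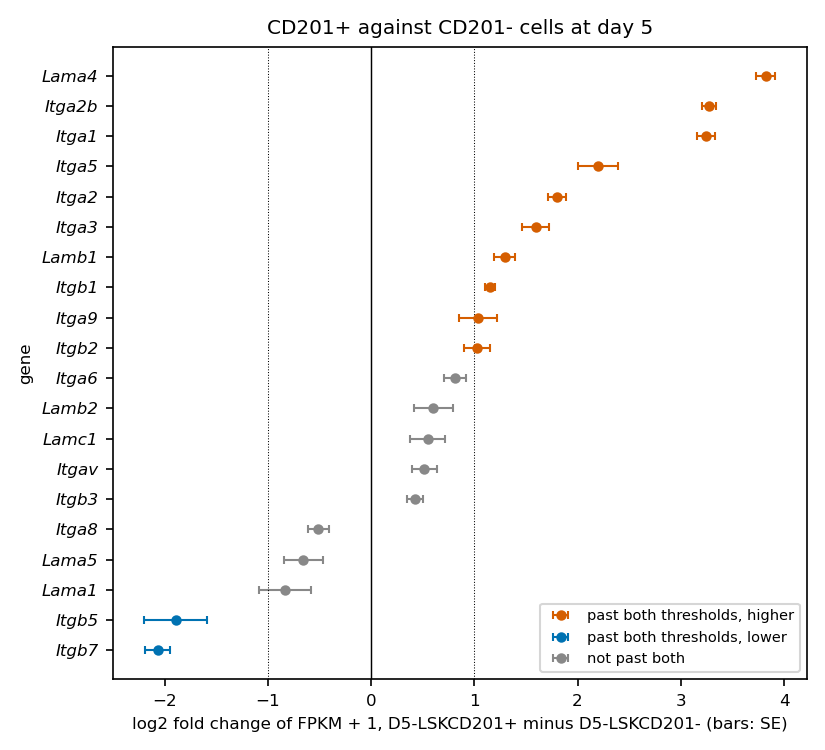
Log2 fold change of FPKM + 1 between D5-LSKCD201+ and D5-LSKCD201- cells for 20 of the 21 tested members, with bars for the standard error and dotted lines at a log2 fold change of 1 in either direction. Lama4 (3.82), Itga2b (3.27) and Itga1 (3.25) stand highest, and Itgb5 (-1.89) and Itgb7 (-2.07) lowest.

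Of the laminin chains, Lama4 and Lamb1 were higher in the CD201+ fraction. Lama4 read 33.6, 31.4 and 30.7 FPKM in CD201+ against 1.36, 1.14 and 1.49 in CD201- cells, the widest gap of any tested member (log2 fold change 3.82, SE 0.09, adjusted p = 1.36e-07). Lamb1 read 64.4, 63.5 and 62.0 FPKM against 28.2, 21.5 and 26.5 (log2 fold change 1.29, SE 0.10, adjusted p = 2.53e-05). Lama1 and Lama5 were higher in each CD201- library than in any CD201+ library, at means of 3.99 against 1.69 and 5.31 against 2.93 FPKM, with log2 fold changes of -0.83 (SE 0.25, adjusted p = 0.0209) and -0.66 (SE 0.19, adjusted p = 0.017) that stayed short of 1. Without D5-LSKCD201- replicate 2, that of Lama1 was -1.14 and passed both thresholds. Lamc1, the main gamma chain, read 29.3 against 20.1 FPKM (0.55, SE 0.17, adjusted p = 0.0234).

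As a share of the laminin alpha sum, Lama4 thus took 85.7% ± 1.24 in CD201+ and 12.8% ± 2.72 in CD201- cells, where Lama5 (49.1% ± 0.835) and Lama1 (35.7% ± 5.29) led. All 21 tested members had non-overlapping libraries in this comparison, as had 73.6% of all genes tested.

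Markers of other cell types moved together with these genes. Besides the endothelial list, D5-LSKCD201+ cells held more of the hematopoietic list (120 to 122 FPKM, 6 of 10 markers at 1 FPKM or more, against 55.7 to 63.7, 8 of 10), of the stromal list (94.6 to 100 FPKM, 8 of 10, against 39.5 to 73.8, also 8 of 10) and of the endoderm list (1524 to 1555 FPKM, 4 of 8, against 367 to 406, 7 of 8), of which Sparc alone made 1414 and 333 FPKM. D5-LSKCD201- cells held more of the epithelial list (1345 to 1567 FPKM, 6 of 6, against 26.4 to 29.7, 5 of 6) and of the muscle list (196 to 311 FPKM, 5 of 6, against 46.5 to 55.02, 2 of 6). Their part in the integrin and laminin differences was not tested.

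The genes around the integrins were read from 2 lists. Of 36 adhesion machinery genes, which link integrins to actin and to signalling, 34 were tested and 15 were higher and 1 was lower in CD201+ than in CD201- cells. Fermt3, the blood-cell kindlin that activates integrins, read 76.4 ± 2.65 (SD, n = 3) against 10.96 ± 1.75 FPKM (log2 fold change 2.70, SE 0.11, adjusted p = 9.52e-07), and the Src-family kinase Lyn 34.6 ± 1.60 against 3.26 ± 0.547 FPKM (3.07, SE 0.11, adjusted p = 5.5e-07). Of 37 ligands and basement membrane partners, 35 were tested, 15 were higher and 5 lower. Col4a1 and Col4a2, the main chains of basement membrane collagen, read 412 ± 27.8 against 34.4 ± 20.1 and 178 ± 5.71 against 15.2 ± 8.27 FPKM, and Icam2, a ligand of Itgb2 integrins, 401 ± 10.5 against 13.5 ± 1.0 FPKM (log2 fold change 4.79, SE 0.06, adjusted p = 3.34e-08).

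Both fractions were then set against mESC, so these 2 comparisons share the mESC libraries, and the first shares the D5-LSKCD201+ libraries with the comparison above. In D5-LSKCD201+ cells 10 of 22 tested members were higher (Itga1, Itga2, Itga2b, Itga3, Itga5, Itgb1, Itgb2, Itgb3, Lama4, Lamb1) and 2 lower (Itgb5, Itgb7) than in mESC, where 37.6% of all genes were called (19.5% higher, 18.1% lower). In D5-LSKCD201- cells 3 of 23 were higher (Itga2b, Lama1, Lamb1) and 1 lower (Itga6), against 14.3% of all genes (10.9% higher, 3.48% lower). Of the genes called in the second comparison 75.7% were higher, and 59.8% after quantile normalization. Libraries did not overlap for 22 of 22 members in the first comparison, as for 86.1% of all genes, and for 17 of 23 in the second, as for 64.4%.

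Itga2b was at 0.649, 0.750 and 0.402 FPKM in mESC, below every library of both fractions, with log2 fold changes of 4.86 (SE 0.09, adjusted p = 1.48e-10) in CD201+ and 1.58 (SE 0.12, adjusted p = 3.17e-05) in CD201- cells. Lama4 was at 0.171, 0.194 and 0.128 FPKM in mESC, with log2 fold changes of 4.82 (SE 0.07, adjusted p = 4.37e-11) and 0.997 (SE 0.09, adjusted p = 0.000106), of which the second fell just short of a call and became one with a pseudocount of 0.1 (2.43) and without D5-LSKCD201- replicate 2 (1.06), mESC replicate 1 (1.001) or mESC replicate 2 (1.015). Lamb1 was at 7.23, 7.28 and 7.12 FPKM in mESC and rose in both fractions, by 2.97 (SE 0.04, adjusted p = 4.09e-11) and 1.68 (SE 0.11, adjusted p = 1.73e-05) on the log2 scale. Itga2 was listed at 0 in all 3 mESC libraries, so no fold is given.

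Itga6 was highest in mESC, at 34.7, 35.7 and 32.3 FPKM, above every library of both fractions. It fell by 1.52 on the log2 scale in CD201- cells (SE 0.11, adjusted p = 2.64e-05) and differed by -0.71 in CD201+ cells (SE 0.05, adjusted p = 1.06e-06). Itgb7 and Itgb5 read 9.68 ± 0.545 and 19.5 ± 1.43 FPKM in mESC and were lower in CD201+ cells, with log2 fold changes of -2.30 (SE 0.11, adjusted p = 6.23e-08) and -2.07 (SE 0.15, adjusted p = 1.07e-06), while in CD201- cells they differed from mESC by -0.23 (adjusted p = 0.0489) and -0.18 (adjusted p = 0.583). Lama1 was higher in CD201- cells than in mESC, at 4.99, 2.13 and 4.85 against 0.767, 0.866 and 0.898 FPKM (log2 fold change 1.38, SE 0.25, adjusted p = 0.00258), with CD201- replicate 2 the lowest of its group.

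Marker lists moved from mESC to the day 5 fractions as well. In mESC the endoderm list summed to 74.95 to 82.3 FPKM (2 of 8 markers at 1 FPKM or more), the epithelial list to 144 to 153 (5 of 6), the muscle list to 7.45 to 15.5 (3 of 6), the endothelial list to 64.6 to 68.6 (6 of 10), the stromal list to 8.24 to 9.72 (2 of 10) and the hematopoietic list to 19.998 to 20.7 (3 of 10). All 6 were higher in every D5-LSKCD201- library, and in D5-LSKCD201+ libraries all but the epithelial list were higher. The megakaryocyte list, which holds Itga2b, was at 1.28 to 1.57 FPKM in mESC (0 of 8 markers). It was at 7.47 to 8.35 in D5-LSKCD201- (3 of 8) and 60.1 to 62.4 in D5-LSKCD201+ libraries (5 of 8). Itga2b alone gave means of 0.600, 3.78 and 45.2 FPKM of it in mESC, D5-LSKCD201- and D5-LSKCD201+ cells. In the same order the erythroid list read 4.42 to 6.79, 50.9 to 121 and 31.5 to 51.5 FPKM. The myeloid list read 1.58 to 2.40, 11.4 to 12.6 and 9.21 to 9.96 FPKM. Their part in the differences was not tested.

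Of the adhesion machinery, 20 of 33 tested genes were higher and 1 lower in CD201+ cells than in mESC, and 7 of 34 higher and 0 lower in CD201- cells, where limma gave 5 lower at an unadjusted p under 0.05. Tgfb1i1, a focal adhesion adaptor related to paxillin, read 57.3 ± 1.29 FPKM in CD201+, 25.1 ± 2.60 in CD201- and 2.76 ± 0.439 in mESC. Of the ligands and partners, 22 of 35 were higher and 3 lower in CD201+ cells, and 16 of 34 higher and 2 lower in CD201- cells. Madcam1, the ligand of the integrin formed by Itga4 and Itgb7, read 49.9 ± 2.81 FPKM in CD201+ cells against 1.13 ± 0.142 in mESC (log2 fold change 4.58, SE 0.07, adjusted p = 7.27e-11), while both chains of its receptor were at or under 1.52 FPKM in all CD201+ libraries.

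**Figure D4:**
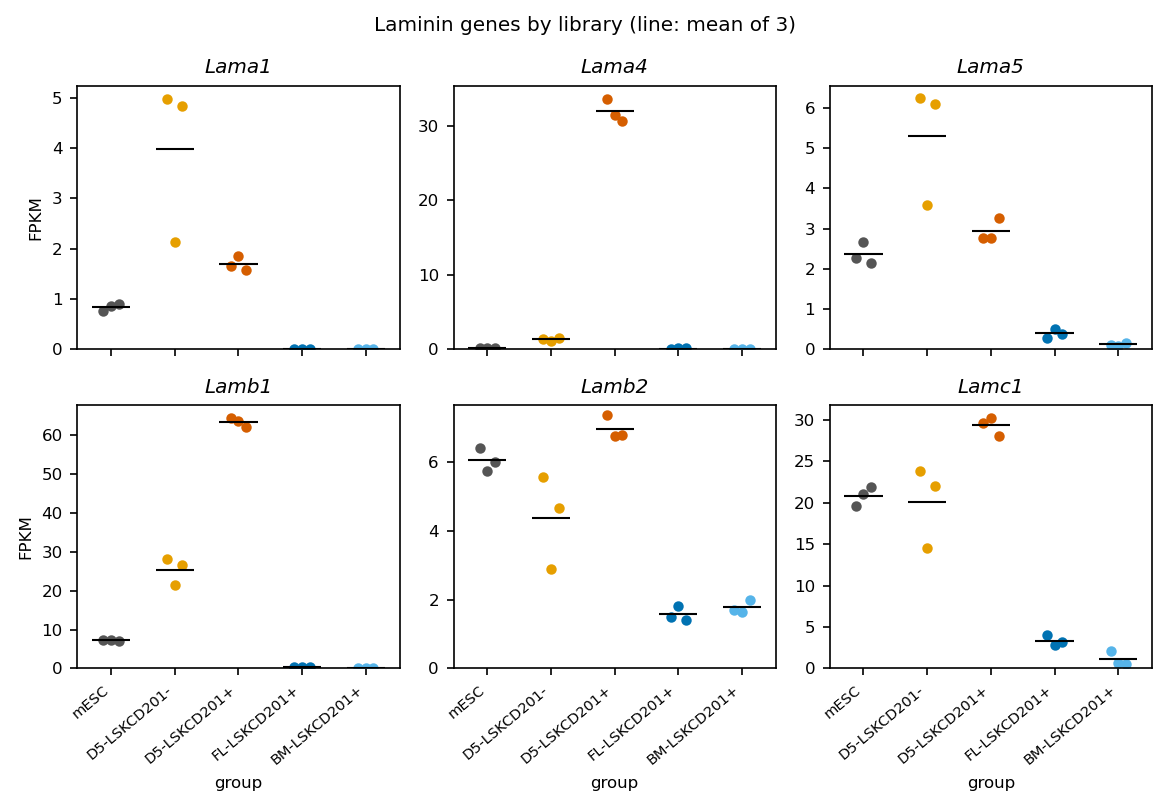
FPKM of 6 laminin chains in each sorted library (points) with the mean of 3 (line), on linear axes that start at 0 and differ between panels. Lama4 and Lamb1 are highest in D5-LSKCD201+ cells, Lama1 and Lama5 in D5-LSKCD201- cells, and all 6 are lower in the fetal liver and bone marrow libraries than in either day 5 fraction.

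The induced CD201+ cells were next compared with the primary cells of the same sort phenotype. D5-LSKCD201+ cells had more of 12 members than FL-LSKCD201+ cells and more of the same 12 than BM-LSKCD201+ cells, namely Itga1, Itga2, Itga2b, Itga3, Itga5, Itgb1, Lama1, Lama4, Lama5, Lamb1, Lamb2 and Lamc1, with 22 members tested in each. Both comparisons share the D5-LSKCD201+ libraries. They had less Itga4, Itgal, Itgam, Itgb2 and Itgb7 than either, and less Itgb5 than BM-LSKCD201+ cells, which gives 5 and 6 lower members. Of all genes tested, 34.7% were called against FL-LSKCD201+ (15.1% higher, 19.6% lower) and 44.7% against BM-LSKCD201+ cells (17.5% higher, 27.2% lower). The median log2 difference of the tested members was 1.46 and 1.303, and that of all genes -0.16 and -0.23. Libraries did not overlap for 20 of the 22 members against fetal liver (76.6% of all genes) and for 21 of the 22 against bone marrow (85.3%).

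The leukocyte alpha chains Itga4, Itgal and Itgam read under 0.5 FPKM in every library of the induced cells. Itga4, the alpha chain of VLA-4, which holds stem cells to VCAM1 in the marrow, read 0.234, 0.301 and 0.129 FPKM in D5-LSKCD201+, 12.9, 11.3 and 11.9 in FL-LSKCD201+ and 10.99, 7.48 and 8.03 in BM-LSKCD201+ libraries (log2 fold change -3.41, SE 0.10, adjusted p = 2.43e-07 against fetal liver and -2.99, SE 0.15, adjusted p = 7.72e-07 against bone marrow). Some of its exons overlap exons of Cerkl on the opposite strand. Itgal, the alpha chain of LFA-1, read 0.441, 0.268 and 0.297 FPKM against 9.11, 6.97 and 7.16 in fetal liver and 5.36, 4.96 and 5.77 in bone marrow (-2.71 and -2.25). No library of the induced cells reached those of either tissue for these chains.

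Itgb2, the beta chain of LFA-1 and Mac-1, was present in the induced cells at 3.65, 3.62 and 3.82 FPKM, against 35.7, 24.8 and 24.3 in fetal liver (log2 fold change -2.62, SE 0.15, adjusted p = 6.47e-06) and 25.1, 25.9 and 27.6 in bone marrow (-2.53, SE 0.07, adjusted p = 3.32e-08). Itgam, its Mac-1 partner, was at 0, 0.174 and 0.140 FPKM, against 6.47, 3.18 and 3.11 and 5.08, 5.08 and 4.15 (-2.19 and -2.38). Itgb7 separated all 3 populations, with 0.906, 1.14 and 1.52 FPKM in the induced cells, 13.6, 6.60 and 6.63 in fetal liver and 39.8, 37.1 and 35.8 in bone marrow (log2 fold change -2.12, SE 0.27, adjusted p = 0.00034 and -4.15, SE 0.11, adjusted p = 3.89e-08). The hematopoietic marker list moved with these chains, with 6 of 10 markers at 1 FPKM or more and a sum of 120 to 122 FPKM in D5-LSKCD201+ cells, against 10 of 10 and 1310 to 1538 in FL-LSKCD201+ and 10 of 10 and 1411 to 1547 in BM-LSKCD201+ cells. The myeloid list summed to 9.21 to 9.96 FPKM (2 of 8), against 2187 to 2208 (8 of 8) and 712 to 845 (5 of 8). Their part in the difference was not tested.

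The 250 bases before the RefSeq start of Itga4 (GRCm38.p6, plus strand, chr2:79255176-79255425) are shown because it had the widest fold change among the chains lower than in fetal liver and carries 1 of the 2 RUNX matches among member starts. Capitals mark the match, which reads as the reverse complement of TGTGGT and begins 60 bases before the start.
Itga4: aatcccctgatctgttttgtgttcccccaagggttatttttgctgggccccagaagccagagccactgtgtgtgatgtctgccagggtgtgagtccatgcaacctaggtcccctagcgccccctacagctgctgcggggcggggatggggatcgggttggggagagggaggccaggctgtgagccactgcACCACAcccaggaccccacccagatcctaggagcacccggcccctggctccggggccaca

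Lamb1, Lama4 and Lamc1 were higher in the induced cells than in either tissue. Lamb1 read 62.0 to 64.4 FPKM in the induced cells against 0.250, 0.295 and 0.337 in fetal liver and 0.00823, 0.101 and 0.0842 in bone marrow (log2 fold change 5.64, SE 0.07, adjusted p = 2.73e-08 and 5.92, SE 0.07, adjusted p = 1.75e-09). Lama4 read 30.7 to 33.6 FPKM against at most 0.161 in fetal liver and 0.0552 in bone marrow libraries (4.91 and 5.01). Lamc1, at 28.03 to 30.3 FPKM, was at 4.02, 2.87 and 3.18 in fetal liver and 2.11, 0.701 and 0.546 in bone marrow (2.81 and 3.91). The 3 chains of an Lama4, Lamb1 and Lamc1 trimer were therefore all measured above 28 FPKM in the induced cells and below 5 in every primary library.

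Itga1 read 14.6 to 15.9 FPKM in the induced cells against 0.347, 0.213 and 0.192 in fetal liver and 0, 0.00594 and 0.0354 in bone marrow (3.68 and 3.99). Itga5 read 51.4 to 53.5 FPKM against 8.44, 5.96 and 6.12 and against 5.52, 5.04 and 5.22 (2.78 and 3.09), and Itga3 8.39 to 9.53 against at most 0.615 and 0.886 FPKM (2.88 and 2.48). Itga2b was also higher in the induced cells than in the primary ones, where it read 8.30, 8.74 and 8.45 FPKM in fetal liver and 11.3, 11.8 and 11.7 in bone marrow (2.28, SE 0.06, adjusted p = 2.32e-07 and 1.88, SE 0.05, adjusted p = 3.37e-08). The megakaryocyte list, which holds Itga2b, ran the other way, at 60.1 to 62.4 FPKM in the induced cells (5 of 8) against 208 to 263 in fetal liver and 341 to 354 in bone marrow (8 of 8 in both). All 10 endothelial markers reached 1 FPKM in the induced cells against 9 of 10 and 7 of 10 in the 2 tissues. The stromal list, at 94.6 to 100 FPKM (8 of 10), was at 12.4 to 15.4 in fetal liver (1 of 10) and 7.06 to 7.89 in bone marrow (2 of 10). The endoderm list, at 1524 to 1555 FPKM (4 of 8), was at 280 to 445 (4 of 8) and 6.42 to 11.8 (2 of 8), and the muscle list, at 46.5 to 55.02 FPKM (2 of 6), was at 0.216 to 0.530 and 0.426 to 0.662 (0 of 6 in both). The erythroid list, at 31.5 to 51.5 FPKM (4 of 8), was at 385 to 534 (8 of 8) and 4.99 to 13.5 (3 of 8), and the epithelial list, at 26.4 to 29.7 FPKM (5 of 6), was at 39.2 to 52.8 and 162 to 177 (3 of 6 in both). The part of these lists in the differences was not tested.

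Itgb5 differed from fetal liver by less than the spread between replicates (log2 fold change 0.14, SE 0.17, adjusted p = 0.495) and lower than in bone marrow, at 2.76, 4.30 and 4.80 against 32.8, 28.5 and 29.2 FPKM (-2.68, SE 0.16, adjusted p = 2.47e-06), without overlap. In all, 4 of the 22 tested members (Itga6, Itga9, Itgav, Itgb3) were called against neither tissue. Itgav against fetal liver, at a log2 fold change of 0.95, became a call with a pseudocount of 0.1 (1.22), after quantile normalization (1.15), without D5-LSKCD201+ replicate 3 (1.04) and without fetal liver replicate 2 (1.001). Itga6 was near level in the 3 populations, at 20.5 ± 0.525 FPKM in the induced cells, 16.3 ± 1.65 in fetal liver and 22.8 ± 0.866 in bone marrow, with log2 fold changes of 0.32 (SE 0.09, adjusted p = 0.0165) and -0.15 (SE 0.05, adjusted p = 0.0374). Itgav, Itgb3 and Itga9 differed by 0.95, 0.27 and 0.48 from fetal liver and by 0.09, 0.42 and 0.63 from bone marrow.

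Of the adhesion machinery, 14 of 34 tested genes were higher and 5 lower than in fetal liver, and 12 of 35 higher and 6 lower than in bone marrow. Parvg, the parvin of blood cells, read 0.318 ± 0.0885 FPKM in the induced cells against 54.7 ± 15.2 in fetal liver and 115 ± 5.57 in bone marrow (log2 fold change -5.37, SE 0.18, adjusted p = 5.79e-07 and -6.46, SE 0.08, adjusted p = 1.73e-09), whereas the broadly expressed Parva read 31.4 ± 1.0 FPKM against 0.149 ± 0.0217 in fetal liver and 0.0295 ± 0.0511 in bone marrow (4.98, SE 0.08, adjusted p = 3.87e-09). Fermt2, the kindlin of adherent cells, read 57.6 ± 0.362 FPKM against 0.889 ± 0.163 in fetal liver and 0.0644 ± 0.0561 in bone marrow. Of the ligands and partners, 23 of 35 were higher and 4 lower than in fetal liver, and 24 of 34 higher and 2 lower than in bone marrow. Fn1, fibronectin, the ligand of Itga5, read 258 ± 15.7 FPKM in the induced cells against 0.205 ± 0.0281 in bone marrow, and Nid1, which links laminin to collagen IV, 81.1 ± 1.14 FPKM against 0.416 ± 0.0911 in fetal liver and 0.0375 ± 0.0330 in bone marrow.

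The 2 primary populations were compared last among the sorted cells. Of 17 tested members, 1 was higher in fetal liver (Lamc1) and 2 were lower (Itgb5, Itgb7), against 19.1% of all genes called (7.78% higher, 11.3% lower). The libraries of 11 of the 17 did not overlap, beside 63.5% of all genes tested. Itgb5 read 3.72, 3.26 and 3.32 FPKM in fetal liver and 32.8, 28.5 and 29.2 in bone marrow (log2 fold change -2.81, SE 0.10, adjusted p = 2.4e-06), and Itgb7 differed by -2.03 (SE 0.25, adjusted p = 0.000426), with fetal liver replicate 1 above its partners and still below every bone marrow library. The log2 fold change of Lamc1 was 1.10 (SE 0.27, adjusted p = 0.0108), which fell to 0.997, 0.98 and 0.91 without fetal liver replicate 1, bone marrow replicate 2 or bone marrow replicate 3 and was then under the threshold. Itga4 (0.42, adjusted p = 0.0473) and Itgal (0.45, adjusted p = 0.0216) were somewhat higher in fetal liver without reaching the fold threshold, and Itgb1 differed by -0.12 (SE 0.10, adjusted p = 0.347). Itgav (-0.86, adjusted p = 0.000943), Itga6 (-0.46, adjusted p = 0.00692) and Itga2b (-0.40, adjusted p = 0.00733) were lower, also short of that threshold. By adjusted p alone, 3 members were higher and 5 lower.

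By limma 0 of 29 tested machinery genes were higher in fetal liver (6 at an unadjusted p under 0.05) and 2 were lower, Parvg and Tns1, a tensin that ties integrins to actin (2.67 ± 0.238 against 7.50 ± 0.892 FPKM, log2 fold change -1.21, SE 0.12, adjusted p = 0.000196). Of 27 tested ligands and partners, 6 were higher and 5 lower, and the former included Vtn, vitronectin, a plasma protein made by hepatocytes, at 13.5 ± 1.62 against 0.0108 ± 0.0188 FPKM (3.83, SE 0.13, adjusted p = 1.6e-06). Marker lists also differed between the tissues. In fetal liver the endoderm list summed to 280 to 445 FPKM (4 of 8 markers at 1 FPKM or more) against 6.42 to 11.8 in bone marrow (2 of 8), the erythroid list to 385 to 534 (8 of 8) against 4.99 to 13.5 (3 of 8), the myeloid list to 2187 to 2208 (8 of 8) against 712 to 845 (5 of 8) and the mast cell list to 27.5 to 44.2 (3 of 6) against 4.38 to 5.34 (1 of 6). The endothelial list was at 487 to 554 (9 of 10) against 363 to 413 FPKM (7 of 10). The stromal list was at 12.4 to 15.4 (1 of 10) against 7.06 to 7.89 FPKM (2 of 10). The megakaryocyte list was at 208 to 263 against 341 to 354 FPKM (8 of 8 in both) and the epithelial list at 39.2 to 52.8 against 162 to 177 (3 of 6 in both). Their part in the differences was not tested.

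Finally, total day 5 cells grown on OP9 stroma were compared with those grown on gelatin alone. Itga2b, Itgb3 and Lama4 were higher on OP9 and Itga3 was lower, which are 3 and 1 of the 21 members tested, with 16 members not tested. Of all 12958 genes tested, 2.62% were called, 2.11% higher and 0.509% lower. The median log2 difference was 0.07 over the tested members and 0.01 over all genes.

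Both chains of the platelet fibrinogen receptor stood apart. Itga2b read 6.84, 7.93 and 6.24 FPKM on OP9 and 0.530, 0.250 and 0.420 on gelatin (log2 fold change 2.51, SE 0.14, adjusted p = 0.000616). Itgb3 read 3.43, 3.44 and 4.17 against 0.190, 0.110 and 0.280 FPKM (1.97, SE 0.13, adjusted p = 0.000623). Neither gene's groups overlapped, nor did those of 11 of the 21 tested members and 28.7% of all genes tested. Pf4 was at 0.0300 FPKM in both cultures and Gp9 at 0.260 on OP9 and 0.0467 on gelatin. The whole megakaryocyte list, which holds Itga2b, summed to 9.30 to 11.1 FPKM on OP9 (2 of 8 markers at 1 FPKM or more) and 1.01 to 1.20 on gelatin (0 of 8).

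Lama4 read 2.88, 3.38 and 2.65 FPKM on OP9 and 1.27, 0.560 and 0.880 on gelatin (1.07, SE 0.17, adjusted p = 0.0103), a call that was lost after quantile normalization (0.96) and without gelatin replicate 2 (0.94). Itga3 read 3.29, 3.32 and 6.44 FPKM on OP9 and 16.5, 15.6 and 19.7 on gelatin (-1.81, SE 0.22, adjusted p = 0.00481), with OP9 replicate 3 the highest of its group and still below the lowest gelatin library. Itgb7 read 1.12, 1.27 and 2.27 against 0.320, 0.290 and 0.320 FPKM, and its log2 fold change of 0.94 (SE 0.18, adjusted p = 0.0221) missed the fold threshold, which it passed with a pseudocount of 0.1 (1.95) and without OP9 replicate 1 (1.06). Itgb1 was slightly lower on OP9, at 141, 136 and 123.05 against 165, 162 and 170 FPKM (-0.31, SE 0.07, adjusted p = 0.0497).

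**Figure D5:**
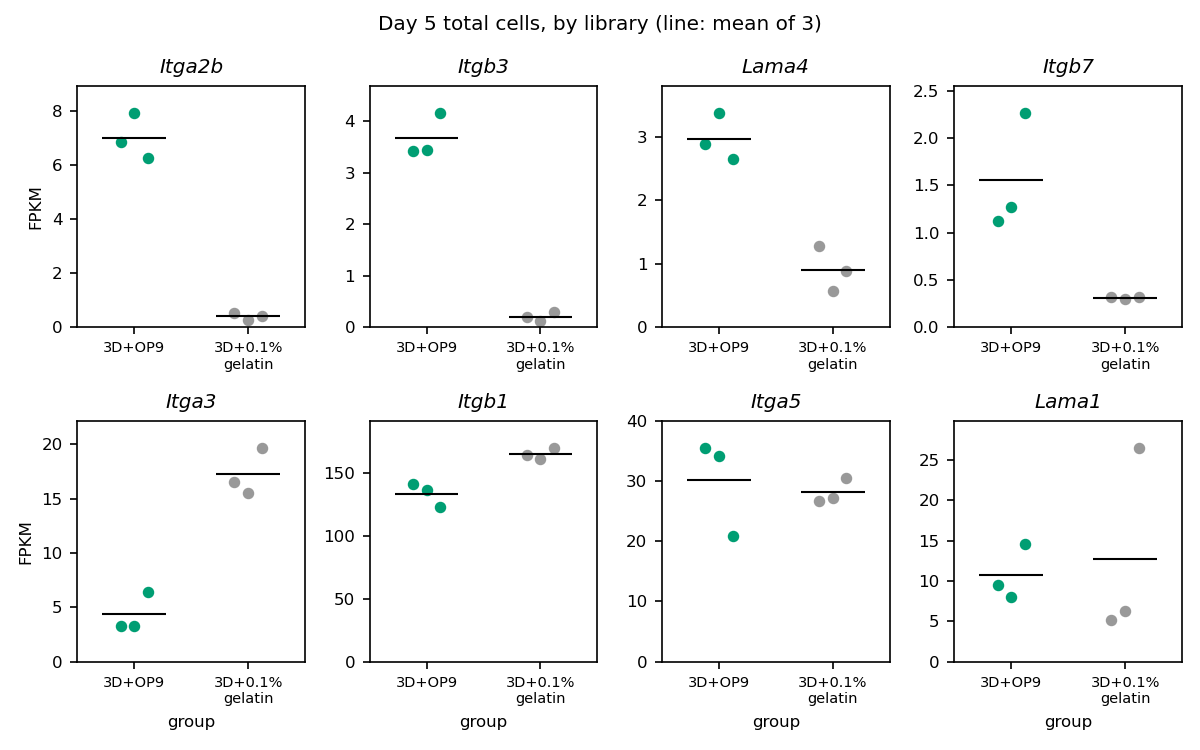
FPKM of 8 integrin and laminin chains in day 5 total cells on OP9 stroma or on gelatin, with a point for each library and a line for the mean of 3, on linear axes that start at 0 and differ between panels. Itga2b, Itgb3 and Lama4 are higher in all 3 OP9 libraries, Itga3 is higher in all 3 gelatin libraries, and 1 gelatin library (26.5 FPKM) sets the mean of Lama1.

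The laminin chains that dominate these total cells were not called. Lamb1 read 41.5 ± 2.12 FPKM on OP9 and 47.5 ± 9.34 on gelatin (log2 fold change -0.18, SE 0.13, adjusted p = 0.477), Lamc1 39.8 ± 4.32 and 39.4 ± 12.8 (0.05, SE 0.20, adjusted p = 0.913), and Lama5 20.4 ± 2.34 and 28.6 ± 4.60 (-0.46, SE 0.14, adjusted p = 0.102). Lama1 was at 9.47, 8.04 and 14.6 FPKM on OP9 and at 5.17, 6.33 and 26.5 on gelatin, where replicate 3 alone was high, and the log2 difference was 0.08 (SE 0.53, adjusted p = 0.95). Itga5 (30.2 ± 8.10 and 28.1 ± 2.10 FPKM) and Itga6 (13.2 ± 3.45 and 12.3 ± 2.42) overlapped between the cultures, and OP9 replicate 3 was the lowest of its group for Itga5 and the highest for Itga6.

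Several marker lists moved with the culture. On OP9 the endothelial list summed to 126 to 150 FPKM (10 of 10 markers at 1 FPKM or more) against 29.6 to 44.2 on gelatin (6 of 10), the hematopoietic list to 34.2 to 40.8 (7 of 10) against 16.0 to 20.1 (4 of 10), the stromal list to 74.3 to 85.5 (8 of 10) against 44.8 to 55.8 (6 of 10), and the erythroid list to 192 to 710 (8 of 8) against 4.40 to 19.2 (3 of 8). The epithelial list was lower on OP9, at 476 to 503 against 676 to 797 FPKM, as was the muscle list, at 68.6 to 98.1 against 235 to 268. The pluripotency list overlapped between the cultures, at 1049 to 1863 FPKM on OP9 and 1500 to 1576 on gelatin (10 of 10 in both). So did the endoderm list, at 159 to 183 (6 of 8) and 143 to 284 FPKM (7 of 8). The OP9 line is of mouse origin, so its transcripts count toward the same genes. Their part in the differences was not tested.

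Around the receptors, 1 of 33 machinery genes was higher on OP9 and 0 were lower by limma (7 at an unadjusted p under 0.05). The higher gene was Fermt3, at 6.89 ± 0.897 against 0.473 ± 0.188 FPKM (log2 fold change 2.42, SE 0.15, adjusted p = 0.000623). Of 34 ligands and partners 6 were higher and 1 lower, among them Icam2 (4.13 ± 0.708 against 0.203 ± 0.0231 FPKM) and Spp1, the integrin ligand osteopontin, whose 143 ± 105 FPKM on OP9 against 9.21 ± 5.53 on gelatin varied widely between libraries. The lower gene was Bcam, a receptor of laminins with an Lama5 chain, at 13.7 ± 4.12 against 39.7 ± 2.27 FPKM (-1.51, SE 0.18, adjusted p = 0.0043).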

How the data were processed

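RNA-seq libraries were made from total or sorted cells with a poly(A)-type mRNA kit and sequenced as paired reads. The authors deposited FPKM per gene. Their processing notes and methods name HISAT2 2.0.5, StringTie 1.3.3, Cuffdiff 1.3.0 and GRCm38, and the notes also list mm9. No count or depth was used here, so no count test was possible. In total, 3578 genes without values were left out of the coculture data.

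Groups were taken from the sample labels, 3 libraries each. FPKM values were log2-transformed after adding 1, genes with a mean under 0.5 FPKM over the 6 libraries compared were removed, and each of 7 pairwise comparisons was fitted across all genes with limma 3.58.1 (trend, moderated, two-sided, R 4.3.3) and adjusted by Benjamini-Hochberg. Genes were called at a log2 fold change of 1 or more in either direction with an adjusted p below 0.05, thresholds the study states. The fit was tested on simulated data, but no outcome of that test is given here. An exact permutation test of 3 against 3 cannot go below p = 0.1. Comparisons that share libraries are not independent. All members may be named, except 1 that is counted and is not reported here by name or value. From the 2 lists of related genes, at most the 4 called genes with the largest fold change per comparison are. The members, lists and markers were chosen with earlier results of these data known.

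The alternatives were a pseudocount of 0.1, no filter, quantile normalization, a filter at 1 FPKM, a prior variance without trend, adjusted p alone, a replicate block, a single fit over the 5 sorted groups, and leaving out each library. Replicate numbers were checked by correlating the deviations of same-numbered libraries from their group means. All 3 correlations exceeded 0.1 for fetal liver against bone marrow (0.242, 0.202 and 0.159) and for no other comparison, and the labels name no shared batch. Numbers 2 and 3 of that comparison correlated slightly higher with a library of another number (0.205 and 0.162). Figures were drawn with matplotlib 3.10.9 (Python 3.11.15).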

Additional observations from a re-analysis of the deposited data

How the results depend on the processing

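Of 194 recomputed counts of called members, 179 stayed within 1.5 times the reported count. Counts moved mainly where a fold threshold of 1 on log2(FPKM + 1) was dropped. With adjusted p alone, lower members became 2 for OP9 against gelatin, 6 for D5-LSKCD201+ against D5-LSKCD201-, 6 for D5-LSKCD201+ against mESC, 4 for D5-LSKCD201- against mESC and 5 for fetal liver against bone marrow, and higher members became 16, 9 and 3 in the last 3 of these. With a pseudocount of 0.1, lower members became 5 for D5-LSKCD201+ against D5-LSKCD201-, and D5-LSKCD201- against mESC had 8 higher and 2 lower. Members that became calls at that pseudocount were Itgb7 (1.95) for OP9 against gelatin, Lama1 (-1.10) and Itga8 (-1.06) for D5-LSKCD201+ against D5-LSKCD201-, Itga9 (1.21) and Itgb4 (-1.22) for D5-LSKCD201+ against mESC, Itgb2 (2.28), Itga8 (1.87), Lama4 (2.43), Lama5 (1.10) and Itgb4 (-1.15), among others, for D5-LSKCD201- against mESC, and Itgav for D5-LSKCD201+ against fetal liver (1.22) and for fetal liver against bone marrow (-1.11). With 1 library left out, the higher count of D5-LSKCD201- against mESC ranged from 3 to 5 (5 without D5-LSKCD201- replicate 2) and that of fetal liver against bone marrow from 0 to 1 (0 without fetal liver replicate 1, bone marrow replicate 2 or bone marrow replicate 3). Of 388 recomputed counts for the 2 lists, 38 moved.

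Of 2014 recomputed log2 fold changes of members, 27 changed sign, and none of those was a call. Quantile normalization turned Lamb2 for OP9 against gelatin (-0.00079), Itgav (-0.14), Itga3 (-0.20) and Itga7 (-0.014) for D5-LSKCD201- against mESC, Itga6 for D5-LSKCD201+ against bone marrow (0.025) and Lamb2 for fetal liver against bone marrow (0.0049). With each library left out in turn, the range crossed 0 for OP9 against gelatin in Itga8 (-0.12 to 0.56), Itga5 (-0.067 to 0.30), Lamb2 (-0.0029 to 0.18), Itga6 (-0.10 to 0.23), Lama1 (-0.32 to 0.76) and Lamc1 (-0.079 to 0.30). It did so for D5-LSKCD201- against mESC in Itga3 (-0.021 to 0.19), Itga9 (-0.30 to 0.047), Lamc1 (-0.21 to 0.13) and Itgb5 (-0.35 to 0.15), for D5-LSKCD201+ against bone marrow in Itgav (-0.0056 to 0.18), and for fetal liver against bone marrow in Itgb2 (-0.090 to 0.18) and Itga9 (-0.025 to 0.45). The cause was not tested.

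With the replicate block, fetal liver against bone marrow, where all 3 same-number correlations exceeded 0.1, kept 1 higher and 2 lower members. No member count of another comparison moved by over 1.5 times. Quantile normalization moved the median of all genes by over 0.1, from -0.12 to -0.01 for D5-LSKCD201+ against D5-LSKCD201-, from 0.05 to -0.10 for D5-LSKCD201- against mESC, from -0.16 to -0.05 against fetal liver, from -0.23 to -0.02 against bone marrow and from -0.13 to -0.02 between the primary tissues. It changed the share of higher genes among all genes called for D5-LSKCD201- against mESC from 75.7% to 59.8%. That share crossed 50% for D5-LSKCD201+ against D5-LSKCD201- (43.7% to 51.8%), mESC (51.9% to 48.9%) and fetal liver (43.5% to 50.2%), and rose from 39.1% to 49.0% against bone marrow and from 40.7% to 49.3% between the tissues. Depth is not known from FPKM, so no counting error can be given for members near 0.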
